A study of Sus scrofa with 22 samples.

Results

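Steroid hormones are inactivated and reactivated inside their target cells by conjugating enzymes, which attach a sulfate or glucuronic acid group, and by converting enzymes, which oxidize or reduce the steroid itself. The 10 enzymes described here were chosen by name: the estrogen sulfotransferase SULT1E1, the steroid sulfatase STS, the glucuronosyltransferases UGT1A6 and UGT2B31, the cholesterol 7-alpha-hydroxylase CYP7A1, the steroid 5-alpha-reductase SRD5A1, and the hydroxysteroid dehydrogenases HSD11B1, HSD11B2, HSD17B4 and HSD17B8. Of these 10 genes, 8 were listed in each of the 3 count tables, which together list 12401 genes. STS and HSD11B2 were not listed and were not analysed here. The choice was made with earlier results of these data known.

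The expression of these genes was measured by RNA sequencing of endometrial cells that had been cut out of frozen uterine sections by laser capture microdissection (LCM). Luminal epithelium (LE) and glandular epithelium (GE) were each represented by 1 library from 4 pregnant gilts (numbered 01, 03, 05 and 14) and 4 control gilts (02, 04, 06 and 13), and stroma (S) by 1 library from 3 pregnant gilts (01, 05 and 14) and 3 control gilts (02, 04 and 13), which makes 22 libraries from 8 animals. All gilts were prepuberal crossbreds of German Landrace and Piétrain whose ovulation had been synchronized with PMSG and hCG, and all were slaughtered on Day 12. The pregnant gilts had been inseminated with semen, and the nonpregnant cyclic control gilts with sperm-depleted semen supernatant from the same boar.

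On Day 12 the elongating pig conceptus secretes estrogens, the signal by which the sow recognizes pregnancy, and the endometrium lies directly against this source. Sulfation by SULT1E1 makes an estrogen unable to bind its receptor, and STS removes the sulfate again. Sulfotransferases draw on a donor molecule made by the PAPS synthases, glucuronosyltransferases on UDP-glucuronic acid, and the conjugates leave the cell through carriers of the ABC family.

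The 300 bases before the start of the gene are shown for 4 enzymes, the 3 that passed the test in LE (SULT1E1, UGT2B31 and HSD11B1) and CYP7A1, which was lower in every pregnant library than in any control library in LE and in S. The sequences are from the NCBI assembly Sscrofa11.1 and are written 5′ to 3′ on the strand of the gene. They cover chr8:66838182-66838481 (minus strand), chr8:66323756-66324055 (minus strand), chr9:133278397-133278696 (minus strand) and chr4:74342801-74343100 (plus strand). Capitals mark matches to the motifs described after the sequences.
SULT1E1: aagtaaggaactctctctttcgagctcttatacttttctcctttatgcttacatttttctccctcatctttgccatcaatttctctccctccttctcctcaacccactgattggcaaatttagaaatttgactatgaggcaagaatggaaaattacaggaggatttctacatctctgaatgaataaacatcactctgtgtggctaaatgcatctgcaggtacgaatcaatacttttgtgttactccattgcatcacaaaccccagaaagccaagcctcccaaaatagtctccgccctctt
UGT2B31: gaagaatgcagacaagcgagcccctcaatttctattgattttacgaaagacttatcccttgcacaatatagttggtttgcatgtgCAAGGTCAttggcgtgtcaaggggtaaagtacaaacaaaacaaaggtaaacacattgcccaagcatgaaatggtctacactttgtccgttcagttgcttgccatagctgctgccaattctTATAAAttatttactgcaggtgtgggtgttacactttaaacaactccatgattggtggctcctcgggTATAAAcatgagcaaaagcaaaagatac
HSD11B1: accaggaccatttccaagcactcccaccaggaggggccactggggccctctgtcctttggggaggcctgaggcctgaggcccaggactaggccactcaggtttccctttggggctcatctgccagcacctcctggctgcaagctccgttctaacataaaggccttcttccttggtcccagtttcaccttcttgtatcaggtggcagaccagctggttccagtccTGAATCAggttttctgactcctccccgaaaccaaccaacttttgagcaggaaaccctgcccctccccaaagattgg
CYP7A1: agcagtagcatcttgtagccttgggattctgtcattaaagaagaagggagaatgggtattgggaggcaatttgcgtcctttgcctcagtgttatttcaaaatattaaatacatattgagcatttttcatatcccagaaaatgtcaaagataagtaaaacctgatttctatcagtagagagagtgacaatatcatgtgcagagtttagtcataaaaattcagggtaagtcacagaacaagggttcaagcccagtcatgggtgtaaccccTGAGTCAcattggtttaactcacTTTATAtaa

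A set of 6 motifs was searched on both strands in the windows of the 8 listed enzymes and in those of 19545 genes. The palindromic estrogen response element, GGTCA and TGACC with any 3 bases between them, was in no window of the 8 and in 0.0153% of all windows. The progesterone and glucocorticoid response element, GNACA and TGTNC with any 3 bases between them, was in no window of the 8 and in 0.287% of all. The estrogen response element half-site GGTCA was in the windows of UGT2B31 and UGT1A6 (38.3% of all), and in UGT2B31 it lies within a match to the NR5A site CAAGGNCA (7.82% of all), which begins 215 bases before the start. The AP-1 site was searched as TGANTCA, with any base in the middle, and this string was in 3 of the 8 windows (6.33% of all). It was TGAGTCA from 32 to 26 bases before the start of both CYP7A1 and UGT1A6. In HSD11B1 it was TGAATCA, from 76 to 70 bases before the start, whose middle A is outside the AP-1 consensus of C or G. The TATA box TATAAA was in 4 of the 8 (11.9% of all), among them UGT2B31 with 2 matches and CYP7A1 with 1 on the opposite strand. The window of SULT1E1 held none of the 6 letter strings.

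SULT1E1 (chr8:66811536-66838181) and UGT2B31 (chr8:66310697-66323755) are on the same strand of chromosome 8, 488 kb apart, with 14 gene models between them, of which 2 were listed in a table. Some reads of these genes cannot be assigned with certainty. Of the 50-base windows of the UGT2B31 exons, 30.5% occur in another gene model, mainly in LOC100515741 (19.1%) and LOC110262115 (12.3%). For UGT1A6 (chr15:133968693-134049029) this share was 14.6%, for SULT1E1 1.59%, and for HSD11B1 (chr9:133231451-133278396), HSD17B4 (chr2:123313445-123401386), HSD17B8 (chr7:25247577-25249786) and SRD5A1 (chr16:75309830-75335438) it was 0. The exons of UGT1A6 overlap those of LOC110256905 over 476 bases. The exons of CYP7A1 (chr4:74343101-74372628) overlap those of SDCBP, a gene on the opposite strand, over 369 bases, and whether strand was used in counting is not stated.

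Library totals ranged from 893912 counts (pregnant LE of gilt 01) to 4020796, so that 3 counts, taken as the floor, correspond to 0.69 to 3.50 CPM (counts scaled to the TMM-adjusted library total). The cell type labels were compared with 8 epithelial and 8 fibroblast markers, all listed and none at 0 in any library. The libraries labelled S did not stand apart as stroma. Summed epithelial markers were at 2683 to 3435 CPM in control S and 2948 to 3633 CPM in control LE, and summed fibroblast markers were at 4755 to 8510 CPM in control S, lower than the 11439 to 16967 CPM of control LE. Some libraries stood apart from their groups. Pregnant S of gilt 01 had 62200 CPM of fibroblast markers, against 8228 and 12100 CPM in gilts 05 and 14, and the lowest epithelial sum of its group (1240 CPM), and control GE of gilt 02 had 46948 CPM of fibroblast markers and 810 CPM of epithelial markers. The other libraries of gilt 01 also held more fibroblast markers than the rest of their groups, 20001 CPM in LE (7585 to 11956 CPM in the other pregnant gilts) and 29589 CPM in GE (10279 to 14043 CPM). Pregnant LE of gilt 01 had, in addition, 4227 CPM of 2 smooth muscle markers (105 to 230 CPM in the other pregnant gilts), 1360 CPM of 5 endothelial markers (554 to 860 CPM) and the lowest epithelial sum of its group (2972 CPM, against 4123 to 4339 CPM). Between the groups in S, all 8 fibroblast markers (median log2 FC 1.55) and all 5 endothelial markers (median 1.45) had a positive log2 FC, none of them past the threshold. Of the 8 epithelial markers, KRT7, KRT8 and KRT18 were lower in pregnant S without overlap (9.38% of all genes did not overlap and were lower). KRT7 was past the threshold (log2 FC -3.14), as were 1.47% of all genes in S in either direction. In LE, CDH1 and CLDN4 rose (6.33% of all genes passed and were higher) and KRT7, KRT8 and KRT19 fell (3.71% passed and were lower). In GE the summed epithelial markers were at 810 to 2351 CPM in control and 2362 to 3332 CPM in pregnant gilts. The part of these markers in the differences described next was not tested. In these bulk samples, fewer cells of a type and less RNA per cell cannot be told apart.

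**Figure D1:**
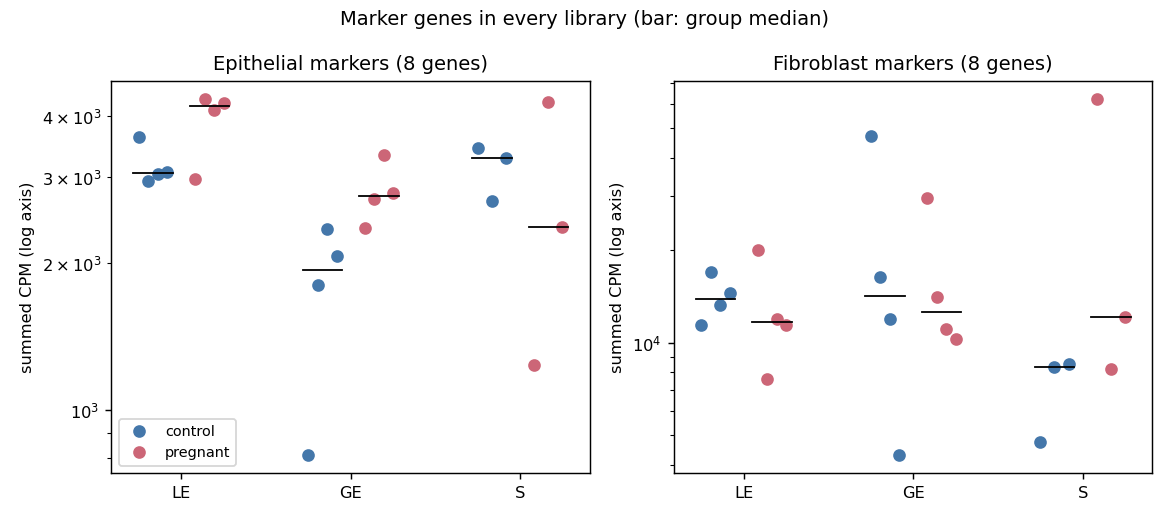
Summed CPM (log axis) of 8 epithelial markers (left) and 8 fibroblast markers (right) in every library of LE, GE and S, with control gilts in blue, pregnant gilts in red and the group median as a bar. The control S libraries sit beside control LE for epithelial markers (2683 to 3435 against 2948 to 3633 CPM) and below it for fibroblast markers, and pregnant S of gilt 01 is the highest fibroblast point at 62200 CPM.

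In LE, 3 of the 8 enzymes passed the test (FDR below 0.01), SULT1E1, UGT2B31 and HSD11B1, and all 3 were higher in pregnant gilts. Of all 11415 genes tested in LE, 10.0% passed, 6.33% higher and 3.71% lower. The pregnant and control libraries did not overlap for these 3 enzymes (14% of all genes did not overlap and were higher) and for CYP7A1, which was lower (12.7% of all). The median log2 FC was 0.90 over the 8 enzymes and 0.01 over all genes. An unadjusted p below 0.05 was found for 6 of the 8 and for 35.6% of all genes. The study had already named SULT1E1, UGT1A6, UGT2B31 and CYP7A1 as differential in these data, and the enzymes were chosen with this known. The values over all genes, here and for GE and S, are therefore given as a scale and are no test of the 8 as a set.

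In GE and in S none of the 8 enzymes passed the threshold of an unadjusted p below 0.0021 in edgeR's quasi-likelihood test, which 0.694% of 11676 genes passed in GE and 1.47% of 11532 in S. At an unadjusted p below 0.05 there were 2 enzymes in GE (8.09% of all genes), SULT1E1 and UGT1A6, and 4 in S (12.5% of all), CYP7A1, HSD11B1, SRD5A1 and SULT1E1. With the likelihood ratio test and with DESeq2, 1 enzyme passed in GE (UGT1A6) and 2 in S (CYP7A1 and HSD11B1), where these tests passed 1.58% and 2.06% of all genes in GE and 4.01% and 4.44% in S. In S the libraries did not overlap for 2 enzymes that were higher in pregnant gilts (8.18% of all genes) and 2 that were lower (9.38% of all), whereas in GE they overlapped for all 8 (2.72% of all genes did not overlap and were higher, and 2.20% were lower). The median log2 FC was 0.17 in GE (-0.02 over all genes) and -0.04 in S (0.08 over all genes).

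**Figure D2:**
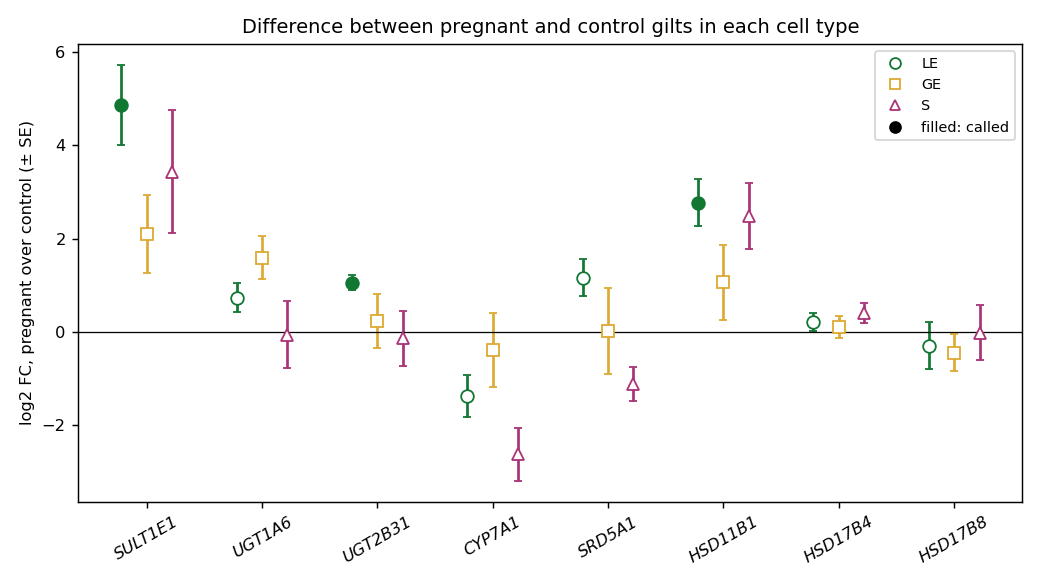
Log2 FC of pregnant over control gilts with its SE for the 8 listed enzymes in LE (circles), GE (squares) and S (triangles), with filled symbols for those past the threshold of their cell type. The 3 filled symbols are SULT1E1 (4.87), HSD11B1 (2.78) and UGT2B31 (1.06), all in LE, and CYP7A1 in S (-2.63) is the lowest point.

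SULT1E1, the sulfotransferase with the highest affinity for estrogens, was the enzyme with the largest difference. In LE, control gilts 02, 04, 06 and 13 had 8.86, 70.8, 30.6 and 5.06 CPM, and pregnant gilts 01, 03, 05 and 14 had 480, 279, 1618 and 1001 CPM. Every pregnant library was above every control library. The means were 28.8 ± 30.2 (SD, n = 4) and 845 ± 599 CPM (SD, n = 4), a 29.2-fold difference with a log2 FC of 4.87 (SE 0.86) and an FDR of 0.00328 in edgeR's quasi-likelihood test. The FDR was above 0.01 when gilt 02 (0.0117) or gilt 06 (0.0148) was left out, and the log2 FC ranged from 4.34 to 5.85 over all fits without 1 gilt, highest without gilt 04.

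In GE, SULT1E1 was at 7.41, 86.3, 35.3 and 6.21 CPM in control gilts 02, 04, 06 and 13, and at 145, 64.3, 279 and 90.8 CPM in pregnant gilts 01, 03, 05 and 14. The groups overlapped through control gilt 04, which was above pregnant gilt 03. The log2 FC was 2.11 (SE 0.84), with an unadjusted p of 0.0328 and an FDR of 0.568 in edgeR, and it ranged from 1.56 (without gilt 05, unadjusted p 0.108) to 3.14 (without gilt 04, unadjusted p 0.00448). In the libraries labelled S, control gilts 02, 04 and 13 had 11, 96.7 and 4.76 CPM, and pregnant gilts 01, 05 and 14 had 88.2, 965 and 171 CPM. Here control gilt 04 was above pregnant gilt 01. The log2 FC was 3.43 (SE 1.32; unadjusted p 0.0342, FDR 0.353 in edgeR). It ranged from 1.75 (without gilt 05, unadjusted p 0.175) to 5.69 (without gilt 04, unadjusted p 0.00453), and was 3.86 without gilt 01.

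Some animals kept their place in the 3 cell types. Gilt 04 had the highest SULT1E1 level of the control gilts and gilt 13 the lowest in LE, GE and S, and gilt 05 had the highest level of the pregnant gilts in each. The lowest pregnant gilt was 03 in LE and GE and 01 in S, for which gilt 03 has no library. The libraries of one gilt come from the same endometrium, so that these are not independent observations.

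**Figure D3:**
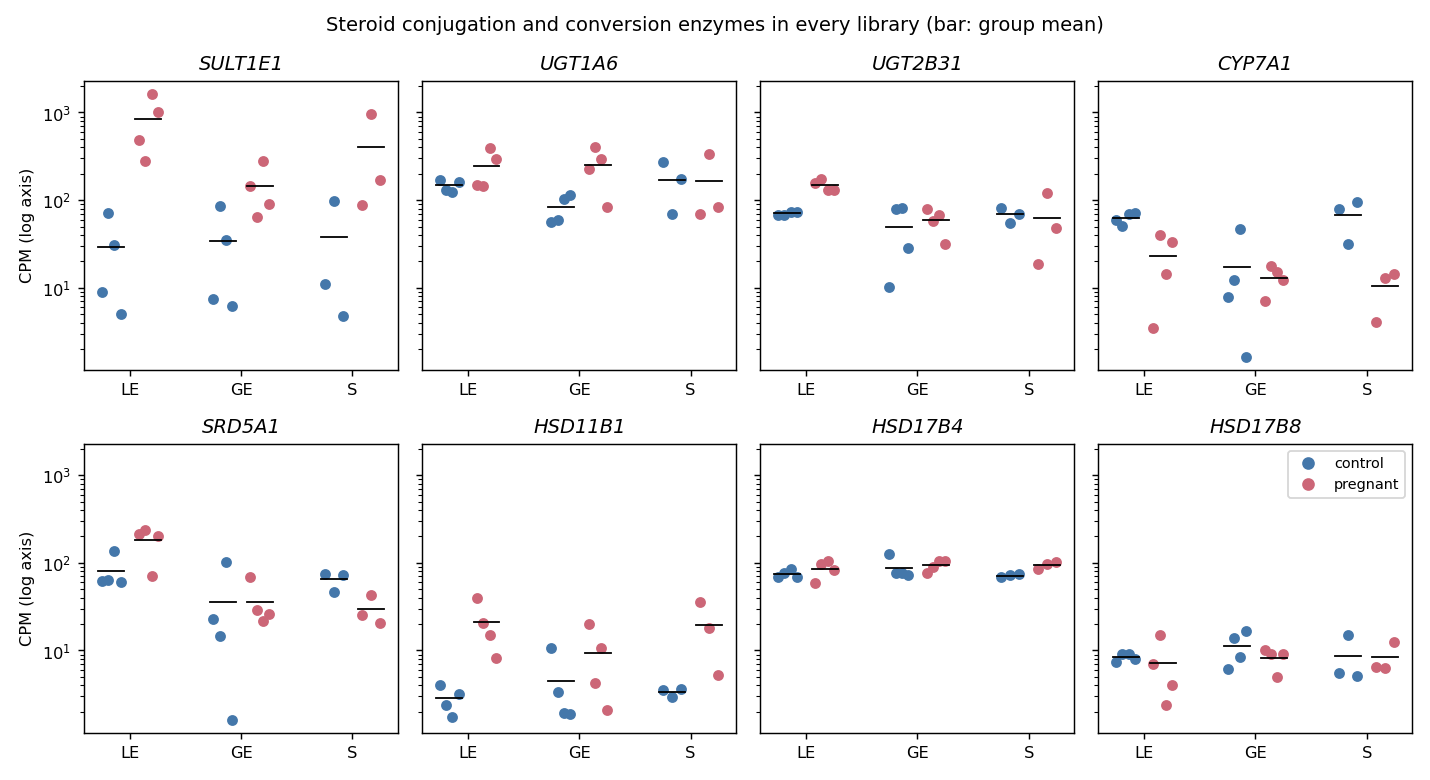
CPM (log axis) of the 8 listed enzymes in every library of LE, GE and S, with control gilts in blue, pregnant gilts in red (ordered by gilt number within a group) and the group mean as a bar. For SULT1E1 in LE the pregnant points run from 279 to 1618 CPM and the control points from 5.06 to 70.8 CPM, and the points of HSD17B4 stay between 58.4 and 126 CPM in all 22 libraries.

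The glucuronosyltransferase UGT2B31, of a subfamily that conjugates steroids and bile acids, rose in LE with little spread. Control gilts 02, 04, 06 and 13 had 67.9, 67.3, 73.8 and 73.9 CPM, and pregnant gilts 01, 03, 05 and 14 had 156, 177, 129 and 129 CPM. The groups did not overlap, and the control values lay close together. The means were 70.7 ± 3.59 and 148 ± 23.0 CPM (SD, n = 4 each), a log2 FC of 1.06 (SE 0.16) with an FDR of 0.00136 in edgeR, and the call was made in all 8 fits without 1 gilt. Of the gene models that share windows with UGT2B31, LOC110262115 also rose in LE (log2 FC 1.58, FDR 0.00687), and LOC100515741 had a log2 FC of 1.12 (FDR 0.205). Reads shared between the 3 models cannot be told apart in these counts.

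In GE, UGT2B31 was at 10.3, 79.6, 81.6 and 28.1 CPM in control gilts 02, 04, 06 and 13, and at 78.2, 57.4, 67.5 and 31.8 CPM in pregnant gilts 01, 03, 05 and 14. The pregnant values all lay inside the range of the control values (log2 FC 0.23, SE 0.58, FDR 0.934 in edgeR). In S, control gilts 02, 04 and 13 had 81.9, 55.2 and 69.6 CPM and pregnant gilts 01, 05 and 14 had 18.6, 120 and 48.1 CPM. The pregnant values lay on both sides of the control values (log2 FC -0.13, SE 0.59, FDR 0.961 in edgeR), and the log2 FC was 0.26 without gilt 01.

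UGT1A6, which glucuronidates small phenols, was the enzyme with the lowest p in GE. Control gilts 02, 04, 06 and 13 had 56.4, 59.1, 102 and 116 CPM, and pregnant gilts 01, 03, 05 and 14 had 226, 407, 292 and 84.5 CPM. Only gilt 14 of the pregnant gilts fell inside the control range. The log2 FC was 1.60 (SE 0.46; unadjusted p 0.00689, FDR 0.415 in edgeR), above the threshold, and without gilt 14 it was 1.88 with an unadjusted p of 0.000476, below it. In LE, control gilts had 172, 132, 125 and 162 CPM and pregnant gilts 151, 144, 390 and 293 CPM in the same order of numbers, so that gilts 01 and 03 were inside the control range (log2 FC 0.73, SE 0.31, FDR 0.119 in edgeR). In S the values were 272, 69.3 and 174 CPM in control gilts 02, 04 and 13, and 68.8, 340 and 84.2 CPM in pregnant gilts 01, 05 and 14. These groups overlapped widely (log2 FC -0.06, SE 0.72, FDR 0.986). LOC110256904, which shares 6.75% of the UGT1A6 windows, had a log2 FC of 0.77 in GE (FDR 0.718), 0.79 in LE (FDR 0.189) and -0.84 in S (FDR 0.788). Reads shared between these 2 models cannot be told apart in these counts.

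Among the converting enzymes, HSD11B1 is the reductase that makes active cortisol from cortisone. In LE it was at 4.06, 2.40, 1.74 and 3.22 CPM in control gilts 02, 04, 06 and 13, which corresponds to 5 to 14 counts, and at 39.7, 20.8, 15.1 and 8.12 CPM in pregnant gilts 01, 03, 05 and 14. The lowest pregnant library was above the highest control library. The means were 2.86 ± 1.01 and 20.9 ± 13.5 CPM (SD, n = 4 each), a 6.85-fold difference with a log2 FC of 2.78 (SE 0.51) and an FDR of 0.00389 in edgeR. The call was lost without gilt 03, 04, 06 or 13, with FDR values from 0.0101 to 0.0177. Without gilt 01, the highest library and the one with the smooth muscle markers, it was made with a log2 FC of 2.33 (FDR 0.00487).

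In S, HSD11B1 was at 3.54, 2.92 and 3.66 CPM in control gilts 02, 04 and 13, and at 35.6, 18.1 and 5.21 CPM in pregnant gilts 01, 05 and 14. The groups did not overlap, but the difference did not pass the threshold (log2 FC 2.49, SE 0.71, unadjusted p 0.00899, FDR 0.232 in edgeR). It was 1.75 (unadjusted p 0.0317) without gilt 01, the library high in fibroblast markers, and 2.96 (unadjusted p 0.000535, below the threshold) without gilt 14. The part of these markers in the difference was not tested. In GE, control gilts 02, 04, 06 and 13 had 10.7, 3.34, 1.94 and 1.89 CPM, and pregnant gilts 01, 03, 05 and 14 had 20.2, 4.23, 10.7 and 2.12 CPM, which overlapped (log2 FC 1.06, SE 0.80, FDR 0.771). Gilt 01 had the highest and gilt 14 the lowest HSD11B1 level of the pregnant gilts in all 3 cell types.

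SRD5A1 reduces testosterone and progesterone to their 5-alpha forms, and its differences had opposite signs in LE and S. In LE, control gilts 02, 04, 06 and 13 had 62.4, 64.1, 135 and 59.8 CPM and pregnant gilts 01, 03, 05 and 14 had 215, 237, 70.1 and 201 CPM. Pregnant gilts 01, 03 and 14 were above all control libraries, and gilt 05 was below control gilt 06. The log2 FC of 1.16 (SE 0.39) did not pass the threshold (FDR 0.0559 in edgeR). In S, control gilts 02, 04 and 13 had 74.4, 46.8 and 73.6 CPM and pregnant gilts 01, 05 and 14 had 25.1, 43.2 and 20.8 CPM. All pregnant libraries were lower (log2 FC -1.12, SE 0.36, unadjusted p 0.0163, FDR 0.280 in edgeR, not past the threshold). In GE the control gilts ranged from 1.62 (gilt 13) to 102 CPM (gilt 06) and the pregnant gilts from 21.7 to 68.1 CPM, with a log2 FC of 0.01 (SE 0.92), whose sign turned with RLE normalization, with library size alone and with the default low-count filter of edgeR.

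HSD17B4, a peroxisomal enzyme that oxidizes estradiol and takes part in fatty acid oxidation, varied least of the 8 relative to its level. Its 22 libraries lay between 58.4 and 126 CPM, and the log2 FC was 0.21 (SE 0.20) in LE, 0.10 (SE 0.23) in GE and 0.41 (SE 0.21) in S. In S, control gilts had 68.1, 72.5 and 73.9 CPM and pregnant gilts 85.0, 96.4 and 103 CPM. These groups did not overlap, with an unadjusted p of 0.0867 in edgeR. HSD17B8, which also oxidizes estradiol, was at 2.42 to 16.7 CPM (6 to 62 counts), and its log2 FC was -0.30 (SE 0.51) in LE, -0.45 (SE 0.40) in GE and -0.02 (SE 0.58) in S, with overlapping groups in each.

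CYP7A1, known as the rate-limiting enzyme of bile acid synthesis from cholesterol in the liver, was the member with the lowest log2 FC. In LE, control gilts 02, 04, 06 and 13 had 59.0, 50.8, 69.3 and 70.6 CPM, and pregnant gilts 01, 03, 05 and 14 had 3.50, 40.5, 14.2 and 33.7 CPM. The groups did not overlap, and the log2 FC of -1.37 (SE 0.46) missed the threshold with an FDR of 0.0554 in edgeR. Without gilt 01, the lowest library and at the floor of 3 counts, the log2 FC was -1.10 (FDR 0.0367). In S, control gilts 02, 04 and 13 had 78.3, 31.3 and 94.1 CPM and pregnant gilts 01, 05 and 14 had 4.05, 13.1 and 14.4 CPM. Again all pregnant libraries were lower, with a log2 FC of -2.63 (SE 0.56), an unadjusted p of 0.002103, just above the threshold of 0.0021, and an FDR of 0.139 in edgeR. Without gilt 01, which had 5 counts, the log2 FC was -2.32 (unadjusted p 0.00350), and without gilt 04 it was -2.98 (unadjusted p 0.000861, below the threshold). In GE the control gilts had 7.83, 12.4, 46.6 and 1.62 CPM and the pregnant gilts 7.07, 17.5, 15.1 and 12.4 CPM, which overlapped (log2 FC -0.40, SE 0.80). SDCBP, whose exons overlap those of CYP7A1, had a log2 FC of -0.21 (FDR 0.495) in LE and -0.82 (FDR 0.350) in S.

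Levels of different enzymes were compared as CPM per kilobase of exon. In control LE the means ran from UGT2B31 (28.3 ± 1.44), UGT1A6 (25.5 ± 3.93), SRD5A1 (23.8 ± 10.8) and HSD17B4 (22 ± 2.30) to SULT1E1 (13.1 ± 13.7), CYP7A1 (11.5 ± 1.73), HSD17B8 (8.23 ± 0.810) and HSD11B1 (1.56 ± 0.549; SD, n = 4 each). The ranges of each neighbouring pair overlapped except for HSD17B8 and CYP7A1 and for HSD11B1 and HSD17B8. In pregnant LE the order was led by SULT1E1 with 383 ± 272, followed by UGT2B31 (59.2 ± 9.22) and SRD5A1 (53.4 ± 22.2). SULT1E1 made up 1.91 to 22.5% of the summed per-kilobase level of the 8 enzymes in the control LE libraries and 35.7 to 80.0% in the pregnant ones. In GE its share was 3.83 to 31.2% and 17.0 to 49.7%, which overlapped, and in S 1.69 to 32.4% and 33.8 to 72.5%. These shares are taken within a library and do not depend on scaling between libraries, but they add up to a constant, so that one enzyme's share lowers the others.

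Because LE, GE and S were cut from the same gilts, the cell types were compared with the gilt as a block, over the 10643 genes listed in all 3 tables (FDR below 0.01 in edgeR). In pregnant gilts, 2 enzymes were lower in GE than in LE, against 15.8% of all genes that differed in either direction. SULT1E1 was 5.46-fold lower in GE (log2 difference -2.45, SE 0.35, FDR 0.000423), and SRD5A1 was 5.21-fold lower (log2 difference -2.38, SE 0.58, FDR 0.00769). HSD11B1 was just outside the threshold (-1.35, FDR 0.0109), and 4 of the 8 had an unadjusted p below 0.05 (41.3% of all genes). Both calls depended on the block: without it none of the 8 passed, with an FDR of 0.0852 for SULT1E1 and 0.0246 for SRD5A1. The SRD5A1 call was also lost in 6 of the 8 fits without 1 gilt (all but those without gilt 06 or 13).

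In control gilts no enzyme passed between GE and LE, against 1.84% of all genes, and 2 had an unadjusted p below 0.05 (27.9% of all genes), CYP7A1 (log2 difference -2.37, SE 0.60, FDR 0.0232) and SRD5A1 (-1.88, SE 0.61, FDR 0.0586), both lower in GE. SULT1E1 had a log2 difference of 0.16 there, with a 95% confidence interval from -0.63 to 0.95. Between S and LE, no enzyme passed in pregnant gilts (3.14% of all genes did) or in control gilts (0.00% of all). An unadjusted p below 0.05 was found for 3 enzymes in pregnant gilts (31.3% of all genes) and for 0 in control gilts (6.50% of all). The lowest FDR were those of SULT1E1 (-1.83, FDR 0.0103) and SRD5A1 (-2.43, FDR 0.0317) in pregnant gilts, both lower in S. Between S and GE, 0 enzymes and 0.00% of all genes passed in either state, and 2 enzymes in control gilts (17.8% of all genes) and 1 in pregnant gilts (2.91% of all) had an unadjusted p below 0.05. Between control S and control LE, 0 of the 8 epithelial markers had an unadjusted p below 0.05 in edgeR, and the part of the captured cells in these values was not tested.

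**Figure D4:**
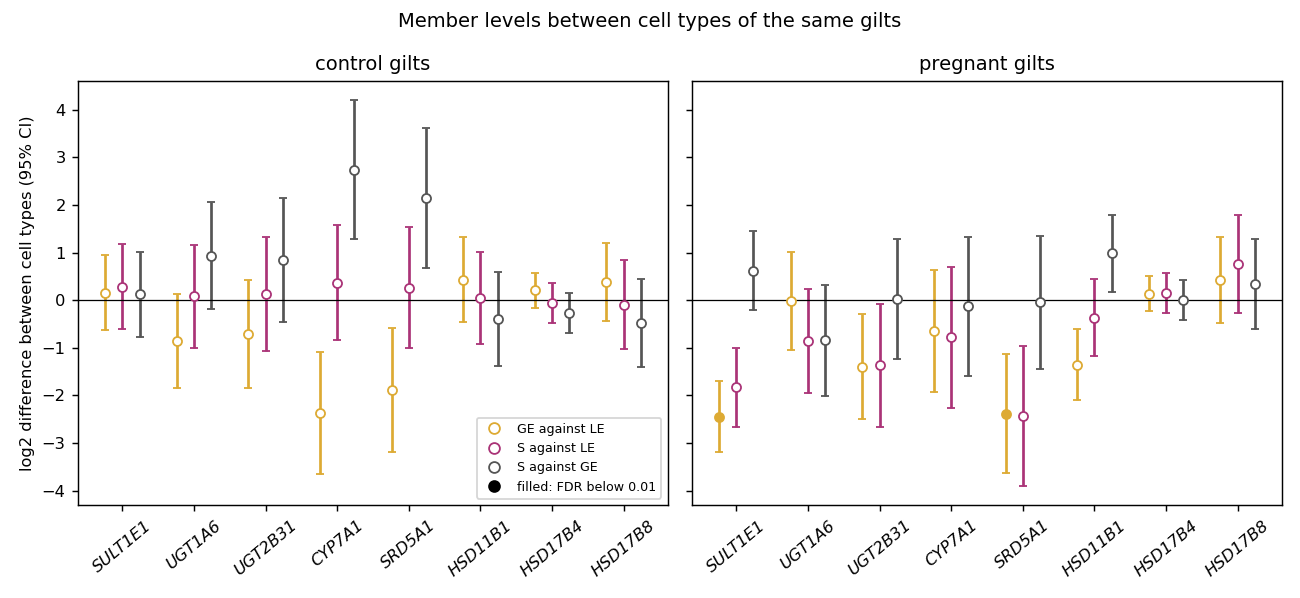
Log2 difference between cell types of the same gilts with its 95% confidence interval for the 8 enzymes, in control gilts (left) and pregnant gilts (right), with filled symbols at an FDR below 0.01. The 2 filled symbols are SULT1E1 (-2.45) and SRD5A1 (-2.38) for GE against LE in pregnant gilts, whereas SULT1E1 lies near 0 in control gilts (0.16).

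Whether the difference between pregnant and control gilts itself differed between cell types was tested as an interaction in the same fit. No enzyme passed the threshold for GE against LE (0.395% of all genes passed), S against LE (0.0188%) or S against GE (0.00%), and 2 (17.3% of all genes), 2 (15.2%) and 4 enzymes (9.90%) had an unadjusted p below 0.05. The lowest FDR was that of SULT1E1 for GE minus LE, with a difference in log2 FC of -2.61 (95% confidence interval -3.69 to -1.53) and an FDR of 0.0167 in edgeR. For HSD11B1 the difference was -1.78 (FDR 0.0942). For S minus LE it was -2.11 for SULT1E1 (FDR 0.137) and -2.69 for SRD5A1 (FDR 0.194), and for S minus GE -2.87 for CYP7A1 (FDR 0.409). Without the block the FDR of the SULT1E1 interaction between GE and LE was 0.446.

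Other genes of the pathway were taken from 6 lists. Of 21 sulfation partners 13 were listed, and none of these is a sulfatase. They are sulfotransferases, PAPS synthases, carriers, phosphatases and sulfatase-modifying factors. Of the 13, 1 passed, PAPSS2, an enzyme that makes the sulfate donor, in S, where 0.425% of all genes passed and were higher. Control gilts 02, 04 and 13 had 12.6, 19.9 and 15.4 CPM of PAPSS2 there, and pregnant gilts 01, 05 and 14 had 59.1, 113 and 90.7 CPM. The groups did not overlap (8.18% of all genes did not and were higher). PAPSS2 rose with a log2 FC of 2.45 (SE 0.34, unadjusted p 0.000137, FDR 0.0512 in edgeR), also in all 6 fits without 1 gilt, among them that without gilt 01. In S all 8 fibroblast and all 5 endothelial markers also had a positive log2 FC, and their part in the PAPSS2 difference was not tested. Its log2 FC was 0.77 in LE (FDR 0.120) and 1.27 in GE (FDR 0.642). The median log2 FC of the list was 0.02 in LE, 0.17 in GE and 0.22 in S.

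Of 13 glucuronidation partners 6 were listed, and 1 fell in LE (3.71% of all genes passed and were lower). This was UGT8, which transfers galactose to ceramide and is no steroid enzyme. It was at 39.1, 33.7, 45.2 and 50.6 CPM in control gilts 02, 04, 06 and 13. Pregnant gilts 01, 03, 05 and 14 had 0, 1.56, 1.21 and 9.37 CPM, which is 0, 3, 4 and 30 counts, against the floor of 3. The groups did not overlap (12.7% of all genes did not and were lower), and the log2 FC was -3.51 (SE 0.60, FDR 0.00271 in edgeR). The size of this difference rests on counts near the floor. The log2 FC was -5.17 without gilt 14, and the call was lost without gilt 06 (FDR 0.0101). Of 28 other hydroxysteroid and keto-steroid enzymes 9 to 11 were listed, and 1 rose in LE (6.33% of all genes passed and were higher). HSD17B12, which acts in fatty acid elongation and on estrone, rose there from 93.5 ± 13.8 to 239 ± 87.6 CPM (SD, n = 4 each; log2 FC 1.35, SE 0.27, FDR 0.00591 in edgeR). This call was made in 1 of 8 fits without 1 gilt (that without gilt 14). Of 27 steroid P450 enzymes and electron donors 6 or 7 were listed and none passed in any cell type.

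Of 17 carriers of conjugates 9 to 11 were listed, and 1 rose in LE (6.33% of all genes passed and were higher). This was ABCC1, an ABC exporter of conjugated organic anions. Control gilts 02, 04, 06 and 13 had 23.2, 34.5, 34.1 and 34.3 CPM, and pregnant gilts 01, 03, 05 and 14 had 447, 496, 312 and 123 CPM. The groups did not overlap, the log2 FC was 3.44 (SE 0.40, FDR 0.000355 in edgeR), and the call was made in all 8 fits without 1 gilt. The carriers did not move together. Of the 9 listed in LE, 6 had a positive and 3 a negative log2 FC (median 0.21). In GE 7 were positive and 4 negative (median 0.08), and in S 5 and 5 (median 0.27). All 8 listed steroid receptors of a list of 12 had a negative log2 FC in LE (median -0.78, against 0.01 over all genes), and 2 fell (3.71% of all genes passed and were lower). ESR1, the estrogen receptor alpha, fell from 432 ± 34.0 to 150 ± 60.5 CPM (log2 FC -1.51, SE 0.26, FDR 0.00302 in edgeR), and NR3C1, the glucocorticoid receptor, from 110 ± 10.4 to 47.4 ± 13 CPM (log2 FC -1.23, SE 0.21, FDR 0.00253; SD, n = 4 each). Each of these 2 calls was made in 5 of the 8 fits without 1 gilt and lost without gilt 02, 05 or 06, with FDR values from 0.0103 to 0.0124. With libraries scaled by their size alone, the median log2 FC over all genes in LE moved from 0.01 to -0.14.

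**Figure D5:**
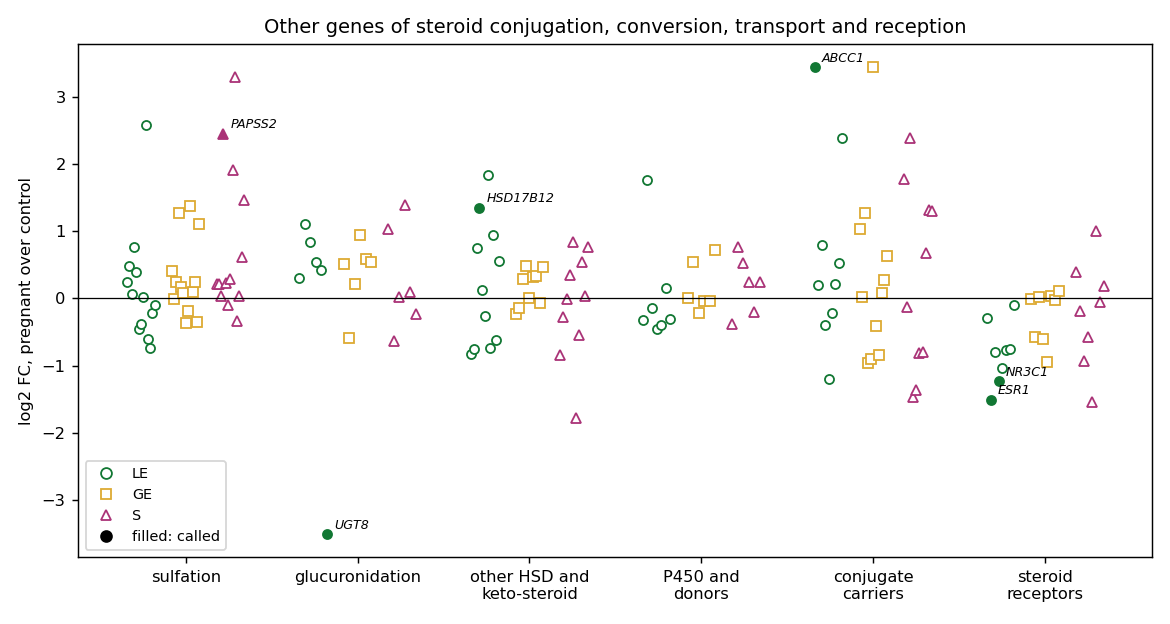
Log2 FC of pregnant over control gilts for each listed gene of 6 pathway lists in LE (circles), GE (squares) and S (triangles), with filled and named symbols for those past the threshold. The filled symbols are PAPSS2 in S (2.45) and, in LE, ABCC1 (3.44), HSD17B12 (1.35), NR3C1 (-1.23), ESR1 (-1.51) and UGT8 (-3.51), and the 8 receptor circles are all below 0.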

How the data were processed

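LE, GE and S were cut from sections of gilt endometrium by LCM, and libraries were made from total RNA with the Ovation SoLo system. The authors clipped adapters, mapped with Hisat2 to Sscrofa11.1, dropped PCR duplicates using random adapter bases, and filtered genes by CPM, as the study's methods state. Used here were the authors' deposited tables of raw read counts per NCBI gene, 1 for each of LE, GE and S. How reads were counted, with or without strand, and the filter's level are not given in the sources used here. Genes missing from a table were not analysed there.

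The 3 tables were analysed separately with edgeR 4.0.16 under R 4.3.3 (TMM, quasi-likelihood test of pregnant against control gilts, all listed genes). Thresholds followed the study (FDR below 0.01 in LE, unadjusted p below 0.0021 in GE and S). The study took 0.0021 as the p at its own FDR cutoff in LE. Here that cutoff lay at a lower p (CDH1 in LE, quasi-likelihood p 0.000972, FDR 0.00978), so the thresholds are not matched. The study reported SULT1E1 higher in LE, GE and stroma, UGT1A6 higher in GE, UGT2B31 higher in LE and CYP7A1 lower in LE and stroma. Of these calls, those of SULT1E1 and UGT2B31 in LE were made here. UGT1A6 in GE and CYP7A1 in S passed only with the likelihood ratio test and with DESeq2, or in some other alternative fits. Cell types were compared in a joint fit of 22 libraries and 10643 genes with the gilt as a fixed block (FDR below 0.01). SE is the log2 FC divided by the root of F. The block rests on the labels, in which equal numbers mark one gilt. As a check, deviations from group means were correlated between libraries of one gilt (medians 0.257 for LE and GE, 0.314 for LE and S, 0.468 for GE and S) and of other gilts (-0.0229, -0.0335 and -0.0438). Totals of 893912 to 4020796 counts limit the precision of low genes, and the floor of 3 counts covers counting error only.

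Alternatives were RLE, library size alone, 2 low-count filters, the likelihood ratio test, DESeq2 1.42.0, an FDR below 0.05, no block, a random block (limma 3.58.1), only the 6 gilts with an S library, and leaving out each gilt. The fits were tested on simulated counts. Gene models, windows and sequences were read with Python 3.11.15 from the NCBI annotation of Sscrofa11.1. The members and gene lists were chosen with earlier results of these data known. Named genes are the members and every list gene that passed in at least 1 cell type. Genes most like a member were to be named only for members that passed in at least 2 cell types, and there were none. Genes that share windows or exons with a member, and SULT2A1, were named after their values were seen. Complete endometrium was not analysed here.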

Additional observations from a re-analysis of the deposited data

Results flagged for a closer look

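Groups of 4 libraries were examined for the 8 enzymes in LE and GE, control and pregnant. In 4 of these 32 groups, 1 gilt lay far from the other gilts of its group on the CPM scale. The rule used flags about 1 in 20 groups by chance only if values are normally distributed and groups are independent. The CPM were not log-transformed, all 4 flagged values were the highest of their group, and 2 came from the same library. The number of flagged groups therefore cannot be compared with that rate. HSD11B1 was at 10.7 CPM in control GE of gilt 02, against 3.34 CPM in the next gilt. HSD17B4 was at 126 CPM in the same library, against 76.6 CPM in the next. This is the control GE library with 46948 CPM of fibroblast markers, whose part in the 2 values was not tested. SRD5A1 was at 135 CPM in control LE of gilt 06, against 64.1 CPM in the next, and at 68.1 CPM in pregnant GE of gilt 01, against 29.0 CPM in the next.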

How the results depend on the processing

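The 3 calls in LE were made under every alternative that kept all 8 gilts, except that HSD11B1 was not tested with at least 10 counts in every library. With only the 6 gilts with an S library 0 of the 8 passed in LE (FDR 0.0159 for SULT1E1, 0.0132 for UGT2B31 and 0.0332 for HSD11B1). In that setting 435 of all 11415 genes passed in LE, against 1146 in the main fit. Without 1 gilt the number in LE ranged from 1 to 3 (lowest without gilt 06), in GE from 0 to 1 (1 without gilt 14) and in S from 0 to 1 (1 without gilt 04 or 14). Over all genes, 588 to 1643 passed without 1 gilt in LE, 42 to 100 in GE and 65 to 221 in S. The main fits passed 1146, 81 and 170 genes. In GE 1 enzyme passed with the likelihood ratio test and with DESeq2. In S 1 passed with library size alone and with the default filter of edgeR, and 2 with the likelihood ratio test and with DESeq2. Over all genes these 4 settings passed 198, 176, 463 and 512 in S. With library size alone 50.5% of all calls in LE were higher in pregnant gilts, against 63.0% with TMM.

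For GE against LE in pregnant gilts, 0 enzymes passed without the replicate block, 1 with the 6 gilts alone, and 1 to 3 without 1 gilt. In control gilts 1 passed with a random block and at an FDR below 0.05, and 0 to 1 without 1 gilt. For S against LE in pregnant gilts 1 passed with RLE, 2 at an FDR below 0.05 and 0 to 1 without 1 gilt. For the response of GE against LE 1 passed at an FDR below 0.05. Leaving out the block changed no other call.

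Signs of the log2 FC turned for 5 of the 8 enzymes, none of them past the threshold there. The log2 FC of SRD5A1 in GE was -0.0020 with RLE, -0.053 with library size alone, -0.0071 with the default filter, and -0.48 to 1.5 without 1 gilt, and that of CYP7A1 in GE was 0.67 with the 6 gilts and -0.78 to 0.88 without 1 gilt. Without 1 gilt the log2 FC also ranged from -1.07 to 0.043 (without gilt 05) for HSD17B8 in LE, -0.10 to 0.60 for UGT2B31 in GE, -1.16 to 0.44 for UGT1A6 in S, -1.03 to 0.26 for UGT2B31 in S and -0.44 to 0.69 for HSD17B8 in S. Summed over the cell types, the list genes that passed were 2 sulfation partners with DESeq2, 0 glucuronidation partners with at least 10 counts or the 6 gilts and 3 with the likelihood ratio test, DESeq2 or an FDR below 0.05, 2 other hydroxysteroid enzymes at an FDR below 0.05 and 0 with the 6 gilts, 4 carriers with the likelihood ratio test or DESeq2 and 3 at an FDR below 0.05, and 4 receptors with DESeq2 or an FDR below 0.05 and 0 with the 6 gilts. Without 1 gilt they were 1 to 2 sulfation partners, 0 to 2 glucuronidation partners, 0 to 2 hydroxysteroid enzymes, 1 to 3 carriers and 0 to 2 receptors. The number of all genes that passed moved with these settings too. In LE it was 1146 in the main fit, 2072 with the likelihood ratio test, 2182 with DESeq2 and 2557 at an FDR below 0.05. It was 907 there with at least 10 counts and 435 with the 6 gilts. At an FDR below 0.05 it was 2 in GE and 29 in S. The causes were not tested.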

Other observations

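SULT2A1, the sulfotransferase of hydroxysteroids such as DHEA, passed in no cell type and was chosen after its values were seen. Its level was highest in GE, where it was at 279 ± 193 CPM in control and 724 ± 391 CPM in pregnant gilts (SD, n = 4 each), against 5.43 ± 10.3 and 34.9 ± 57.0 CPM in LE. In S it was at 40.5 ± 39.2 CPM in control and 399 ± 270 CPM in pregnant gilts (SD, n = 3 each). The groups did not overlap there (8.18% of all genes did not and were higher), with a log2 FC of 3.30 (SE 1.25, FDR 0.344 in edgeR). The log2 FC was 1.37 (FDR 0.685) in GE and 2.58 (FDR 0.237) in LE, with overlapping groups.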
